A study of Mus musculus with 6 samples.

Results

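Fc receptors and Fc receptor-like genes were followed in the spleen of F1 mice from 2 crosses. The members were 10 genes given by name: Fcgr1, Fcgr2b, Fcgr3, Fcgr4, Fcer1g, Fcgrt, Fcrl1, Fcrl5, Fcrla and Fcrlb. A probe set, the group of short probes that reports one transcript on an Affymetrix array, was taken as a member where the platform annotation gave it exactly 1 of these symbols. This gave 16 of the 45037 probe sets tested, for 8 of the 10 genes. Fcgr2b had 5 probe sets, Fcrla 3, Fcgr1 and Fcrl1 2 each, and Fcgr3, Fcgr4, Fcer1g and Fcgrt 1 each. Fcrl5 and Fcrlb matched no probe set with 1 symbol and have no value here.

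The tested animals were adult (AKR/J x FVB/NJ)F1 females, called AKR F1, and they were set against adult (DBA/2J x FVB/NJ)F1 females, called DBA F1. Each cross had 3 spleens with 1 array each, and every animal carried a FVB/NJ genome, so that the crosses differ in the other parent. No treatment was given before the animals were killed under Avertin anaesthesia. The labels name each sample as a spleen and do not say whether animals shared a litter or a cage, and p-values measure the spread between these samples.

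Fc receptors bind the constant part of antibodies and pass on the presence of an antibody-coated target to the cell that carries them. The activating receptors of macrophages, monocytes, neutrophils and NK cells (Fcgr1, Fcgr3 and Fcgr4) signal through the common gamma chain, Fcer1g, whose tail holds an activation motif that recruits the kinase Syk. The inhibitory receptor Fcgr2b holds an inhibitory motif that recruits the phosphatase SHIP, the product of Inpp5d, and in B cells it dampens the antigen receptor. The Fc receptor-like genes Fcrl1 and Fcrla belong mainly to B cells, and Fcgrt encodes the neonatal receptor that returns IgG to the blood.

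The values are log2 signals as deposited, and all differences are AKR F1 minus DBA F1 on that scale. Levels of different probe sets are not compared with each other, since each binds with its own strength. Across the series 10.4% of probe sets had a limma adjusted p under the threshold of 0.05, 5.14% higher in AKR F1 and 5.26% higher in DBA F1. Of the calls 49.4% were higher in AKR F1 as deposited, and 61.9% with each array centred on its median. Array medians lay between 5.04 and 5.08 in AKR F1 and between 5.08 and 5.10 in DBA F1. The spread was wider in AKR F1. Upper quartiles were 7.14 to 7.17 in AKR F1 and 7.04 to 7.08 in DBA F1, and lower quartiles 3.36 to 3.38 and 3.46 to 3.48. The B cell gene Cd79a stood at 12.03 in AKR F1 and 11.67 in DBA F1, which marks tissue with B cells but does not by itself identify spleen. Transcripts of pancreatic acinar cells were also present: the mean of 8 such genes was 13.92, 13.94 and 13.97 in AKR F1, against 13.42, 13.77 and 6.37 in DBA F1. DBA F1 replicate 3 stood apart in this, and values without it are given for the called Fc receptor, pathway and neighbouring genes and the called B cell markers. Red cell precursor genes were lower in AKR F1, with a list mean of 8.24 to 8.89, against 9.93 to 10.69 in DBA F1. All 7 such genes passed, and what part the makeup of the tissue had in the results below was not tested.

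Among the Fc receptor probe sets the calls were at 2 of the 5 probe sets of the inhibitory receptor. Of the 16 probe sets, 2 passed, both of Fcgr2b and both higher in AKR F1 (12.5%, beside 10.4% of all probe sets), and 0 were higher in DBA F1 in limma. At an unadjusted p under 0.05 the counts were 6 and 0. The share of all probe sets under that unadjusted cut was not computed, here or below, so such counts have no background beside them. The share called at the adjusted threshold is close to that of all probe sets. The 3 AKR F1 arrays lay above all 3 DBA F1 arrays at 6 of the 16 probe sets (37.5%, beside 17.7% of all probe sets), and the reverse held at 1, where 18.3% of all probe sets did so. The 6 were the 2 called probe sets of Fcgr2b, all 3 of Fcrla and 1 of Fcrl1. The median difference over the 16 was 0.16, beside -0.02 over all probe sets, and 14 of the 16 were above 0. With dim probe sets left out, the median over all that remained was 0.06, and 58.3% of the calls were higher in AKR F1. That filter kept every member probe set but Fcgr2b 1447622_at. Brighter probe sets in general thus leaned towards AKR F1, and the part of this in the members' differences was not tested.

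**Figure D1:**
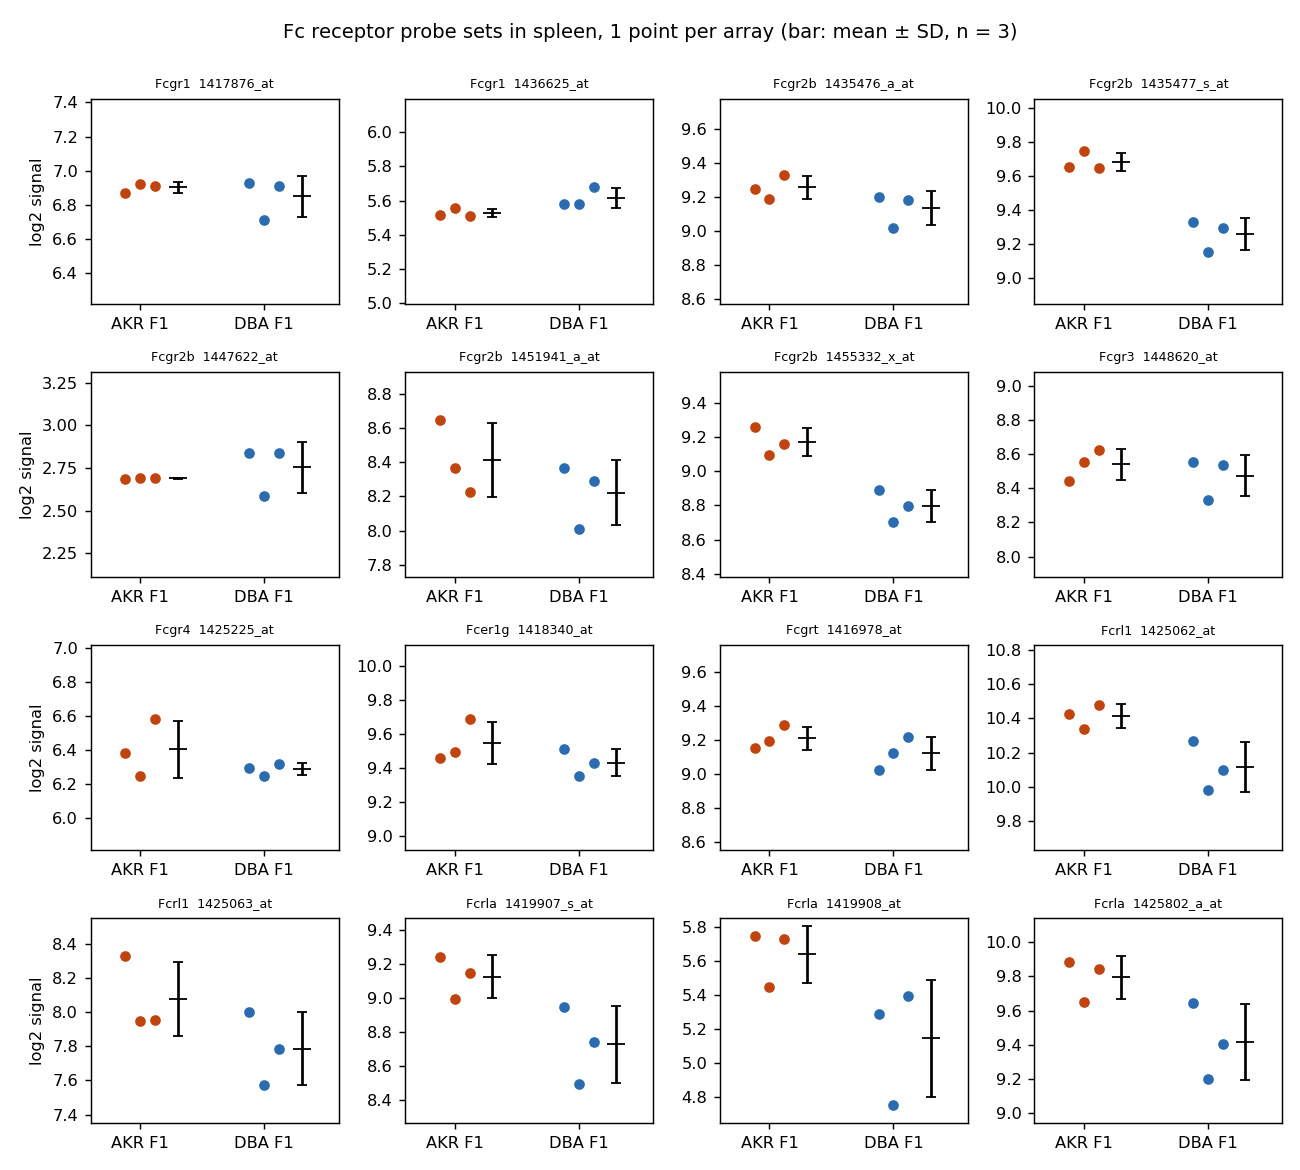
Log2 signal (vertical axes, each spanning the same range of log2 units) of the 16 Fc receptor probe sets on the 3 AKR F1 arrays (left in each panel) and the 3 DBA F1 arrays (right). Points are arrays and bars give the mean ± SD. The arrays of the 2 crosses are separate with AKR F1 on top at 6 probe sets, such as Fcgr2b 1435477_s_at (9.65 to 9.74, against 9.16 to 9.33).

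Fcgr2b, the inhibitory receptor for IgG, was higher in AKR F1 at 2 of its 5 probe sets. Probe set 1435477_s_at read 9.65, 9.74 and 9.65 in AKR F1, against 9.33, 9.16 and 9.30 in DBA F1. The lowest AKR F1 array was thus above the highest DBA F1 array. The difference was 0.42 ± 0.08 (SE), which is 1.34-fold (limma adjusted p = 0.0237). Probe set 1455332_x_at read 9.26, 9.10 and 9.16 in AKR F1, against 8.89, 8.70 and 8.80 in DBA F1. Here too the crosses did not overlap, and the difference was 0.38 ± 0.09, or 1.30-fold (adjusted p = 0.0361). Without DBA F1 replicate 3 these differences were 0.44 and 0.38, with adjusted p = 0.0628 and 0.0910. Both calls were lost when any array other than DBA F1 replicate 1 was left out (adjusted p = 0.0628 to 0.108), fits in which 2.22% to 3.36% of all probe sets passed. After quantile normalization 1455332_x_at did not pass (0.30, adjusted p = 0.0850).

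The remaining Fcgr2b probe sets overlapped between the crosses. Probe set 1435476_a_at read 9.25, 9.19 and 9.33 in AKR F1, against 9.20, 9.02 and 9.18 in DBA F1. The difference was 0.12, with a 95% interval from -0.08 to 0.32. Probe set 1451941_a_at read 8.65, 8.36 and 8.23 in AKR F1, against 8.37, 8.01 and 8.29 in DBA F1. It differed by 0.19, with an interval from -0.12 to 0.50. The dim probe set 1447622_at stood at 2.69 ± 0.00 in AKR F1 and 2.75 ± 0.15 in DBA F1 (SD, n = 3 each), at the low end of the range of every array, and says nothing of the gene's level.

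Fcgr2b probe sets thus gave unequal differences, although 1435476_a_at, 1435477_s_at and 1455332_x_at are listed under the same source sequence. The log2 ratio of 1435476_a_at to 1435477_s_at on the same array was -0.40, -0.55 and -0.32 in AKR F1, against -0.13, -0.14 and -0.11 in DBA F1. The ratio of 1435476_a_at to 1455332_x_at was -0.01, 0.09 and 0.17 in AKR F1, against 0.31, 0.31 and 0.39 in DBA F1. Neither ratio overlapped between the crosses. The ratio of the called pair to each other, 1435477_s_at to 1455332_x_at, was 0.40, 0.65 and 0.49 in AKR F1 and 0.44, 0.45 and 0.50 in DBA F1, and overlapped. Over the 6 pairs of the 4 brighter probe sets, 2 did not overlap, with an exact two-sided permutation p = 0.1 each, the smallest that 3 against 3 arrays can give (0.3 adjusted over the 6 pairs). These pairs were examined after the values were seen. In Affymetrix naming the suffixes _s_at and _x_at mark probe sets with probes that also match other transcripts. The outer domains of Fcgr2b and Fcgr3 are close to identical in sequence, but whether probes of the called sets match Fcgr3 was not tested. Both called probe sets are therefore uncertain as measures of Fcgr2b alone. At Fcgr3's own probe set the difference was 0.07.

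**Figure D2:**
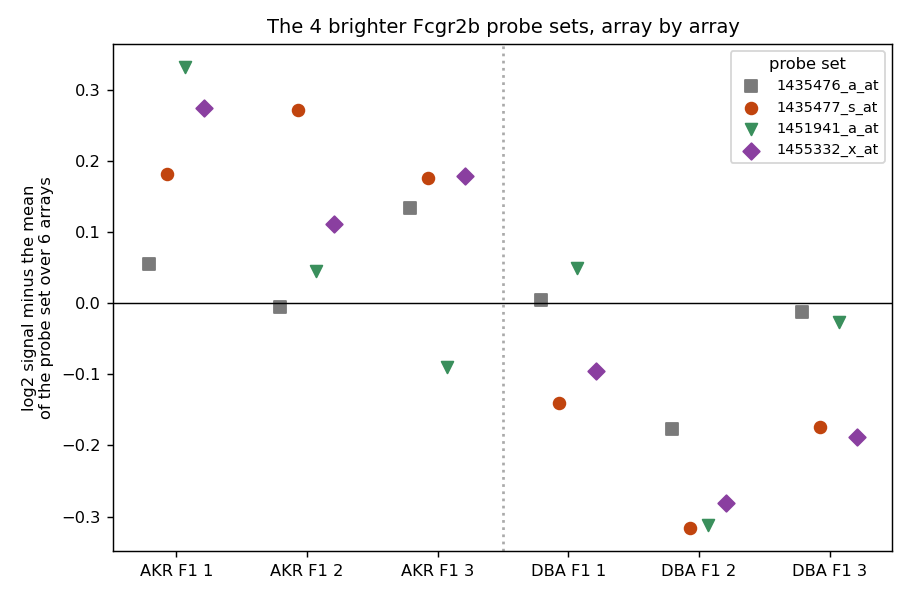
Log2 signal of the 4 brighter Fcgr2b probe sets on each array, minus the mean of that probe set over the 6 arrays (vertical axis), with the 3 AKR F1 arrays left of the dotted line and the 3 DBA F1 arrays right of it. Circles (1435477_s_at) and diamonds (1455332_x_at) lie above 0 on every AKR F1 array and below 0 on every DBA F1 array, while squares (1435476_a_at) and triangles (1451941_a_at) lie on both sides of 0 in AKR F1 and in DBA F1.

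The promoter of Fcgr2b is shown because this gene gave the calls, with those of Fcrl1 and Fcrla, whose arrays separated without a call at 1 of 2 and at all 3 probe sets, for comparison. Sequences are RefSeq reference sequences of build GRCm38.p6, which is not necessarily that of AKR/J, DBA/2J or FVB/NJ, and run from 250 bases before to 50 bases after the start of the gene. All 10 members matched a promoter. Capitals mark GAGGAA, a sequence bound by ETS factors such as PU.1 of B and myeloid cells, or its reverse complement TTCCTC. Shorter or other ETS sites were not searched, so a window without capitals can still hold one. The windows lie at chr1:170976022-170976321, minus strand (Fcgr2b), chr3:87376137-87376436, plus strand (Fcrl1) and chr1:170927534-170927833, minus strand (Fcrla).
Fcgr2b: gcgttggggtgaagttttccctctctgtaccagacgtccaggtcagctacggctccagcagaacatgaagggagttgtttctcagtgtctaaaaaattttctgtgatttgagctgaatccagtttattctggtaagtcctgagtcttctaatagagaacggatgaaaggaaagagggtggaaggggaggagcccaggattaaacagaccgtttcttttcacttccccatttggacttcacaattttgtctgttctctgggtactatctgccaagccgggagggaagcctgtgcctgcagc
Fcrl1: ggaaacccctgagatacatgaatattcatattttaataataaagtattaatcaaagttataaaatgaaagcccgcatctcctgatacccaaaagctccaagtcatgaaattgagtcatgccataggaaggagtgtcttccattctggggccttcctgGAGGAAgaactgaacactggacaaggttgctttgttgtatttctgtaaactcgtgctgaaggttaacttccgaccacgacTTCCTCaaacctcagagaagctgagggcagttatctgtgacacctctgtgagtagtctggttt
Fcrla: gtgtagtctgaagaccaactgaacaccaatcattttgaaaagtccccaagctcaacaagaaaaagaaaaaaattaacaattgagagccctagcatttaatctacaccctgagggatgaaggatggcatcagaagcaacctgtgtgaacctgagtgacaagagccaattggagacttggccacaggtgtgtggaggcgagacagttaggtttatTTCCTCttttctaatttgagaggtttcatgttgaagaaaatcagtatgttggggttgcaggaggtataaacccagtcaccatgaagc
The Fcrl1 window holds 2 matches, with first bases at positions -93 and -13 relative to the start, the Fcrla window holds 1 at -37 and the Fcgr2b window holds 0. The same letters, on either strand, occur in 28.3% of 32851 mouse promoter windows of this length and in those of 6 of the 10 members (Fcgr1, Fcgr3, Fcgr4, Fcrl1, Fcrla and Fcrlb). The octamer ATGCAAAT, a motif of B cell promoters that shares no stretch with the first one, was searched on both strands as well and is in 0 of the 10 members' windows and in 1.74% of all.

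Fcrla, an intracellular protein of B cells that binds immunoglobulin in the endoplasmic reticulum, had higher mean signals in AKR F1 at each of its 3 probe sets and passed at none of them. Probe set 1425802_a_at read 9.88, 9.65 and 9.85 in AKR F1, against 9.64, 9.20 and 9.40 in DBA F1. Probe set 1419907_s_at read 9.24, 8.99 and 9.14 in AKR F1, against 8.95, 8.49 and 8.74 in DBA F1. At both, the lowest AKR F1 array, replicate 2, was just above the highest DBA F1 array, replicate 1. Probe set 1419908_at read 5.74, 5.44 and 5.73 in AKR F1, against 5.29, 4.76 and 5.39 in DBA F1. The crosses again did not overlap. In the order just given the differences were 0.38, 0.40 and 0.49, or 1.30-fold, 1.32-fold and 1.41-fold. Their limma adjusted p values were 0.0860, 0.0778 and 0.0939, so the difference was not past the threshold, and the 95% intervals ran from 0.09 to 0.67, from 0.11 to 0.69 and from 0.11 to 0.88. Without DBA F1 replicate 1, 1425802_a_at and 1419907_s_at passed (adjusted p = 0.0345 and 0.0363). Without DBA F1 replicate 2 the differences were 0.27, 0.28 and 0.30 in the same order (adjusted p = 0.216, 0.191 and 0.185).

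Fcrl1, a surface receptor of B cells with activation motifs in its tail, did not pass either. Probe set 1425062_at read 10.43, 10.34 and 10.48 in AKR F1, against 10.27, 9.98 and 10.10 in DBA F1, without overlap. The difference was 0.30 ± 0.10 (1.23-fold, adjusted p = 0.0816). Probe set 1425063_at read 8.33, 7.95 and 7.96 in AKR F1, against 8.0, 7.57 and 7.78 in DBA F1. The crosses overlapped here, and the difference of 0.29 had an adjusted p of 0.206. Without DBA F1 replicate 1, 1425062_at passed (0.38, adjusted p = 0.0437), and without DBA F1 replicate 2 its difference was 0.23 (adjusted p = 0.211). At 1425063_at the difference was 0.16 without AKR F1 replicate 1 and 0.18 without DBA F1 replicate 2. Over the 5 probe sets of Fcrla and Fcrl1 together, 0 passed in limma, and the median difference was 0.38. An unadjusted p under 0.05 was found at 4 of them, without a share of all probe sets to set beside it.

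B cell markers differed in the same direction. The mean of 9 B cell markers was 10.62, 10.51 and 10.60 in AKR F1, against 10.46, 10.20 and 10.26 in DBA F1, and these did not overlap. Of the 9, 2 passed, both higher in AKR F1 (22.2%, beside 6.29% of all genes in that direction): the complement receptor Cr2 (0.45, adjusted p = 0.0234) and the antigen receptor chain Cd79a (0.36, adjusted p = 0.0395). All 9 differences were above 0, with a median of 0.29. Of 6 markers of marginal zone B cells 1 passed (16.7%, beside 6.29% of all genes), the lipid-presenting molecule Cd1d1 (0.45, adjusted p = 0.0418). Cr2, Cd79a and Cd1d1 each passed in 1 of the 6 fits with 1 array left out, the one without DBA F1 replicate 1. Without DBA F1 replicate 3 their adjusted p values were 0.0737, 0.0997 and 0.0918. After quantile normalization Cr2 passed (adjusted p = 0.0423), and Cd79a and Cd1d1 did not (adjusted p = 0.0608 and 0.0889). Of the markers of other cells that carry Fc receptors, some were also higher in AKR F1. Of 6 dendritic cell markers 3 passed (50%), Cd209a, Siglech and Zbtb46 at 0.70, 0.60 and 0.59, and 4 of the 6 differences were above 0. Of 5 NK cell markers 2 passed (40%), Klrd1 and Eomes at 0.97 and 0.51, and 4 of the 5 were above 0. In that direction 6.29% of all genes passed. Cd209a and Klrd1 passed in all 6 fits with 1 array left out, Siglech in 2, and Zbtb46 and Eomes in 1 each. After quantile normalization Zbtb46 and Eomes did not pass (adjusted p = 0.0553 and 0.0776). The list means were 7.16 to 7.25 in AKR F1, against 6.76 to 6.996 in DBA F1, for dendritic cells, and 7.79 to 7.92 in AKR F1, against 7.37 to 7.61 in DBA F1, for NK cells. The part of these cells in the receptor values was not tested. In whole spleen, fewer cells of a type and less RNA per cell cannot be told apart. Relative to the B cell marker mean on the same array, the difference between the crosses was 0.03 and 0.02 at the Fcrl1 probe sets, with overlap. By the same measure it was 0.10, 0.12 and 0.22 at Fcrla 1425802_a_at, 1419907_s_at and 1419908_at, all with overlap. At Fcgr2b it was 0.15 with overlap at 1435477_s_at, 0.10 without overlap at 1455332_x_at, and -0.15 without overlap at 1435476_a_at. At Fcgr2b 1451941_a_at it was -0.08 with overlap.

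**Figure D3:**
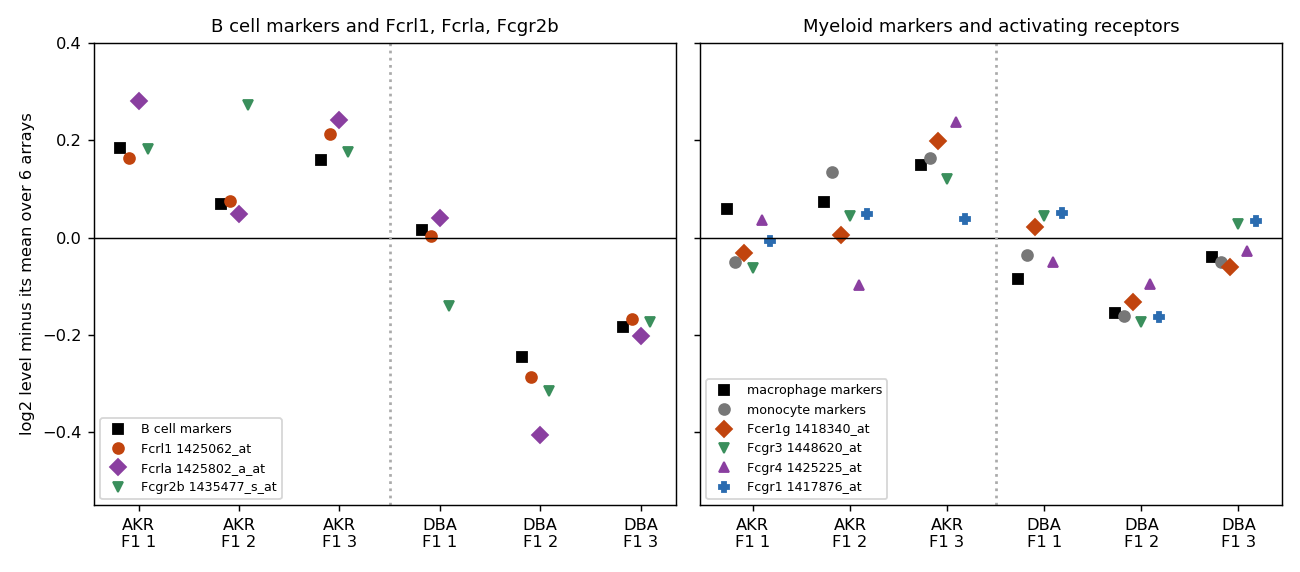
Log2 level on each array minus its mean over the 6 arrays (vertical axis), with AKR F1 left of the dotted line and DBA F1 right of it. Left panel: the mean of 9 B cell markers (black squares) lies above 0 on all 3 AKR F1 arrays and lowest on DBA F1 replicate 2, as do Fcrl1, Fcrla and Fcgr2b. Right panel: the 4 activating receptor genes and the means of macrophage and monocyte markers vary within a narrower band, and AKR F1 replicate 3 has the highest value of Fcer1g, Fcgr3 and Fcgr4.

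The activating receptors and their gamma chain did not pass at any of their 5 probe sets (0 in limma in either direction, also 0 at an unadjusted p under 0.05). Fcer1g, the signalling chain, read 9.46, 9.49 and 9.68 in AKR F1, against 9.51, 9.35 and 9.43 in DBA F1. The crosses overlapped, and the difference was 0.11 ± 0.09 with a 95% interval from -0.10 to 0.33. Fcgr3, the low-affinity activating receptor of macrophages and NK cells, read 8.45, 8.55 and 8.63 in AKR F1, against 8.55, 8.33 and 8.54 in DBA F1. Its difference was 0.07 ± 0.09, with an interval from -0.15 to 0.28. Fcgr4, a receptor of monocytes, macrophages and neutrophils, read 6.38, 6.25 and 6.58 in AKR F1, against 6.29, 6.25 and 6.32 in DBA F1. Its difference was 0.12 ± 0.10, with an interval from -0.11 to 0.35. In each of these 3 genes the highest array was AKR F1 replicate 3.

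Fcgr1, the high-affinity receptor for IgG, read 6.87, 6.92 and 6.91 in AKR F1 at 1417876_at, against 6.93, 6.71 and 6.91 in DBA F1. The difference was 0.05 ± 0.09 (adjusted p = 0.712). Its dimmer probe set 1436625_at read 5.52, 5.56 and 5.51 in AKR F1, against 5.58, 5.58 and 5.68 in DBA F1. This was the only member probe set with every DBA F1 array above every AKR F1 array, and the difference of -0.09 ± 0.08 did not pass (adjusted p = 0.465). The probe sets of the 4 genes leave room for differences between -0.26 and 0.35, the outer ends of their 95% intervals.

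The Fcgr1 promoter (chr3:96293920-96294219, minus strand) is shown beside that of Fcer1g (chr1:171234300-171234599, minus strand), the chain through which Fcgr1 signals, with the same motif in capitals.
Fcgr1: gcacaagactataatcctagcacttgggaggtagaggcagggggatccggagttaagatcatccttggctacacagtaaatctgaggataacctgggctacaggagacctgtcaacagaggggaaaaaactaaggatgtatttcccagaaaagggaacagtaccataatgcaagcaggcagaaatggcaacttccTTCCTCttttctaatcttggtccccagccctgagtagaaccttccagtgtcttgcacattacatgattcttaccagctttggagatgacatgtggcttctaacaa
Fcer1g: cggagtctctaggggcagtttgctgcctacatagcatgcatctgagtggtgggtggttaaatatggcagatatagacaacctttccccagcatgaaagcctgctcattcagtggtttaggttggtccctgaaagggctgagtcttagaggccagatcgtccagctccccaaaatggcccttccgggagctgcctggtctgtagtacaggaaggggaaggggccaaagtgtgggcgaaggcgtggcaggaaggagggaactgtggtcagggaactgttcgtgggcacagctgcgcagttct
The Fcgr1 window holds 1 match to GAGGAA or TTCCTC, at position -55, and the Fcer1g window holds 0. Other ETS sites were not searched. A gamma interferon activation site has the form TTCNNNGAA, which reads the same on both strands and can share letters with that motif. It is in the Fcgr1 window as TTCCCAGAA at position -109. It is in the window of 1 of the 10 members and in 8.3% of all windows.

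Macrophage and monocyte markers stood as follows beside the activating receptors. The mean of 13 macrophage markers was 9.70, 9.71 and 9.79 in AKR F1, against 9.55, 9.49 and 9.60 in DBA F1. Of the 13, 3 passed, all higher in AKR F1 (23.1%, beside 6.29% of all genes in that direction): Cd5l, Marco and Timd4, at 0.71, 0.66 and 0.73. The list went both ways, with 8 of 13 differences above 0 and a median of 0.05, and the sialoadhesin gene Siglec1 was at -0.14 with every DBA F1 array above every AKR F1 array (adjusted p = 0.259). The mean of 8 monocyte markers was 8.48 to 8.70 in AKR F1, against 8.37 to 8.50 in DBA F1, with 0 past the threshold in limma (3 higher and 0 lower in AKR F1 at an unadjusted p under 0.05). Of 10 neutrophil markers 0 passed in limma, also 0 at an unadjusted p under 0.05, and their mean was 7.44 to 7.92 in AKR F1, against 7.28 to 8.52 in DBA F1. Relative to the macrophage marker mean on the same array, Fcer1g and Fcgr4 differed by -0.07 each, with overlap. Fcgr3 differed by -0.12, and Fcgr1 by -0.13 at 1417876_at and -0.27 at 1436625_at. At 3 of the 5 probe sets every DBA F1 array was above every AKR F1 array by this measure. The share of all probe sets that do so by this measure was not computed, so the count is not a result about these receptors. The macrophage mean was itself higher in AKR F1, with 3 markers far above the list median, which lowers each of these differences. Relative to the monocyte marker mean, Fcgr3 (-0.10) and Fcgr1 1417876_at (-0.11) overlapped, as did Fcer1g and Fcgr4 (-0.05 each). Only Fcgr1 1436625_at (-0.25) did not overlap by that measure. The part of macrophages, monocytes and neutrophils in the receptor values was not tested.

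Fcgrt, the heavy chain of the neonatal receptor, which pairs with beta-2 microglobulin and keeps IgG from being degraded, read 9.15, 9.19 and 9.28 in AKR F1, against 9.02, 9.12 and 9.22 in DBA F1. The crosses overlapped, and the difference was 0.09 ± 0.09, with a 95% interval from -0.11 to 0.29. Its partner B2m stood at 13.60 ± 0.06 in AKR F1 and 13.52 ± 0.11 in DBA F1 (SD, n = 3 each) and did not pass (0.07, adjusted p = 0.608).

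**Figure D4:**
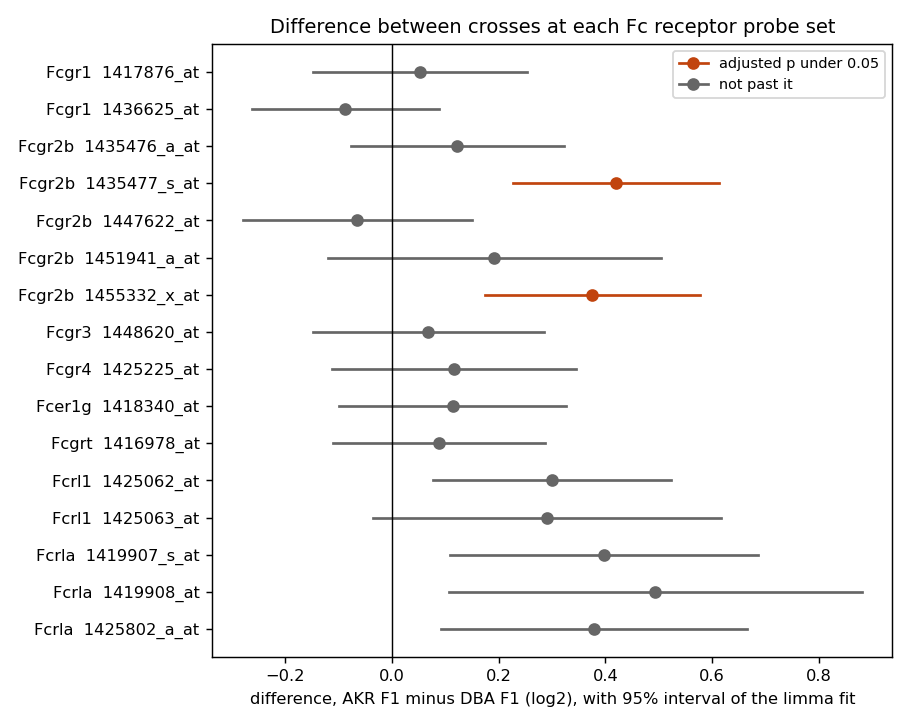
Difference between the crosses, AKR F1 minus DBA F1 in log2 units (horizontal axis), at each of the 16 Fc receptor probe sets, with the 95% interval of the limma fit. The 2 probe sets past an adjusted p of 0.05 are coloured, Fcgr2b 1435477_s_at at 0.42 and 1455332_x_at at 0.38. The intervals of Fcrl1 1425062_at and of all 3 Fcrla probe sets lie above 0, without passing the adjustment over all probe sets.

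Other genes of the pathway were taken from lists, at the probe set with the highest mean for each gene. Of 51 measured, 3 were higher in AKR F1 and 1 in DBA F1 (7.84%, beside 12.5% of all genes). Their median difference was 0.13, beside -0.01 over all genes, dim ones included. Of 24 signalling genes downstream of Fc receptors, 3 passed, all higher in AKR F1 (12.5%, beside 6.29% of all genes in that direction), and 23 of the 24 differences were above 0 with a median of 0.21. Fyn, a Src family kinase also abundant in T cells, stood at 9.73 ± 0.05 in AKR F1 and 9.18 ± 0.05 in DBA F1 (SD, n = 3 each), a difference of 0.55 (adjusted p = 0.00789). Pik3ap1, the B cell adaptor of PI3 kinase, stood at 10.17 ± 0.04 in AKR F1 and 9.75 ± 0.13 in DBA F1 (0.42, adjusted p = 0.0298). Plcg1, a phospholipase of many cell types that is also used in T cells, differed by 0.32 (adjusted p = 0.0468). Fyn passed in each of the 6 fits with 1 array left out, Pik3ap1 in 1, the one without DBA F1 replicate 1, and Plcg1 in 0. Without DBA F1 replicate 3 the adjusted p values of Fyn, Pik3ap1 and Plcg1 were 0.0254, 0.0853 and 0.129, and after quantile normalization 0.0121, 0.0564 and 0.143. T cell markers passed with higher levels in AKR F1 at 7 of 8 genes (87.5%, beside 6.29% of all genes in that direction). All 8 were without overlap, with a list mean of 8.71 to 8.80, against 8.24 to 8.29 in DBA F1, and their part in the values of Fyn and Plcg1 was not tested.

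The direct partners of the 2 kinds of Fc receptor tail, named for their role after their values were seen, did not pass. Syk, the kinase recruited by the gamma chain, stood at 10.14 ± 0.14 in AKR F1 and 9.78 ± 0.13 in DBA F1 (SD, n = 3 each), a difference of 0.37 (adjusted p = 0.0601). Inpp5d, the SHIP phosphatase recruited by Fcgr2b, differed by 0.11 (adjusted p = 0.424), and the phosphatase Ptpn6 (SHP-1) by 0.10 (adjusted p = 0.585).

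Among 11 further Fc receptors and immunoglobulin-binding genes 0 passed in limma, with 1 higher and 1 lower in AKR F1 at an unadjusted p under 0.05. The smallest p was that of Fcrls, a receptor-like gene of chromosome 3, at 4.26 ± 0.10 in AKR F1 and 4.52 ± 0.07 in DBA F1 (-0.27, adjusted p = 0.0825). The low-affinity IgE receptor of B cells, Fcer2a (CD23), differed by 0.32 ± 0.16 (adjusted p = 0.208), and the IgM receptor Fcmr by 0.09 (adjusted p = 0.581). The chains of the mast cell IgE receptor, Fcer1a and Ms4a2, were dim in both crosses (2.94 and 3.57 in AKR F1, 2.96 and 3.63 in DBA F1). Fcer1a and Ms4a2 are also among 7 mast cell and basophil markers, of which 0 passed in limma (0 higher and 2 lower at an unadjusted p under 0.05).

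Of 3 measured heavy chain constant genes, which encode the part of the antibody that Fc receptors bind, 1 passed. Igha, the constant region of IgA, stood at 11.62 ± 0.63 in AKR F1 and 12.76 ± 0.06 in DBA F1 (-1.14, adjusted p = 0.0346), beside 6.17% of all genes called in that direction. It passed in 1 of the 6 fits with 1 array left out, the one without AKR F1 replicate 2 (-1.49), and did not pass without DBA F1 replicate 3 (adjusted p = 0.0809) or with a trended and robust variance (adjusted p = 0.0965). Ighm (IgM) differed by -0.09 and Ighg3 (IgG3) by -0.03, and neither passed.

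On chromosome 1 the members Fcrlb, Fcrla, Fcgr2b, Fcgr4, Fcgr3 and Fcer1g lie close together in the reference annotation. Of 12 other measured genes between them or among the 3 nearest measured genes on either side, with 22 probe sets, 2 had calls, and both were lower in AKR F1. The calls were at 4 of the 22 probe sets (18.2%, beside 5.26% of all probe sets in that direction). Ppox, an enzyme of heme synthesis, differed by -0.63, -0.61 and -0.55 at its 3 probe sets (adjusted p = 0.0314, 0.0286 and 0.0356), and Nr1i3, a nuclear receptor dim in both crosses, by -0.39 (adjusted p = 0.0314). Without DBA F1 replicate 3 none of these 4 passed (adjusted p = 0.0704 to 0.0914), and with 1 array left out each Ppox probe set passed only without DBA F1 replicate 1 and Nr1i3 in 0 of the 6 fits. Red cell precursor genes moved the same way as Ppox, as given above. Sdhc, a subunit of respiratory complex II between Fcgr3 and Fcer1g, differed by -0.06 and -0.02 and did not pass. On chromosome 3, around Fcrl1 and Fcrl5, the same search gave 6 genes with 14 probe sets, of which 1 was called higher in AKR F1, that of Cd5l, and 1 lower, the dim probe set 1443539_at of Arhgef11 (-0.36, adjusted p = 0.0330, and 0.0956 without DBA F1 replicate 3). Each is 7.14% of the probe sets, beside 5.14% and 5.26% of all. Cd5l, next to Fcrl1 in that order, was higher by 0.71 ± 0.09 (adjusted p = 0.00462) and passed in all 6 fits with 1 array left out.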

How the data were processed

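Total RNA of 6 spleens was labelled with biotin and hybridised to 1 Affymetrix array each, per the labels' protocols. The log2 signals were used as deposited. Their medians were near equal, which does not by itself show how the authors scaled them. RMA and MAS5 are named, per the submitters' processing notes, and the sources used here do not give which of them made these values. The file held 45101 probe sets. The 64 control probe sets were left out. The array platform's annotation gave 1 symbol to 34945 of the rest, several to 932 and none to 9160. No 2 arrays held the same values.

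Groups and replicate numbers came from the sample titles. Each probe set was tested with limma 3.58.1 (lmFit and eBayes, R 4.3.3) over all 6 arrays without a covariate, with Benjamini-Hochberg adjustment over the 45037 probe sets and a threshold of 0.05, after the procedure was tested on simulated data. The fit leaves 4 residual degrees of freedom, and the number of arrays limits the precision. Lists used the probe set with the highest mean for each gene, and list results are counts and medians.

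Named genes were all member probe sets; up to 4 called genes per list, or the one with the smallest p; up to 6 called neighbours; and the 3 genes most like the called member. Further names were chosen after their values were seen. The members and lists were chosen with earlier results of these data known. Alternatives were median centring, quantile normalization, a filter on dim probe sets (below percentile 40 of mean level), array weights, robust variances with a trend, a block for replicate number, fits without each array, and averaging all probe sets of a gene. Whether parental variants lie under probes was not tested.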

Additional observations from a re-analysis of the deposited data

How the results depend on the processing

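Of the 16 Fc receptor probe sets, 2 were higher in AKR F1 as deposited. The count was 1 with quantile normalization and 4 with array weights. It ranged from 0 to 5 with 1 array left out: 0 without any of the 3 AKR F1 arrays or without DBA F1 replicate 2 or 3, and 5 without DBA F1 replicate 1. A fit with fewer arrays is less precise. Of all probe sets, 2.22% to 3.36% passed in the fits where the member count was 0. Without DBA F1 replicate 1 it was 10.6%, beside 10.4% with all arrays. The causes of these falls and of the rise without DBA F1 replicate 1 were not tested. The number higher in DBA F1 was 0 in every fit run. Of the other pathway genes, 3 were higher in AKR F1 as deposited, 1 with quantile normalization, 5 with the trended and robust variance and 6 with array weights, and 1 to 6 with 1 array left out. The number higher in DBA F1 was 1 as deposited, 2 with dim probe sets left out, 0 with the trended and robust variance, 2 with array weights, 2 when all probe sets of a gene were averaged, and 0 to 1 with 1 array left out. The cause of these changes was not tested. Probe sets that never passed changed sign as follows. With quantile normalization Fcgr1 1417876_at was at -0.034, Fcgr3 at -0.013 and Fcgr2b 1447622_at at 0.0031. With 1 array left out Fcgr1 1417876_at ranged from -0.015 to 0.091 and Fcgr3 from -0.0017 to 0.116, below 0 without DBA F1 replicate 2.

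The crosses share replicate numbers, which nothing in the labels ties to a litter or a day. Deviations from the cross means correlated at 0.20, 0.11 and 0.05 across probe sets for equal numbers, and 5 of the 6 arrays correlated best with their own number. With the replicate number as a block, 5 member probe sets were higher in AKR F1 (both of Fcgr2b above and all 3 of Fcrla), 5 other pathway genes were higher in AKR F1 and 1 in DBA F1.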

Other observations

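A further list of 13 measured genes held adaptors, such as DAP12, which is related to the gamma chain. It also held receptors, not all of which signal through these adaptors. None of the 13 passed in limma (2 higher and 2 lower in AKR F1 at an unadjusted p under 0.05). The one with the smallest p was Trem2, a lipid receptor of macrophages, at 4.77 ± 0.05 in AKR F1 and 5.09 ± 0.09 in DBA F1 (SD, n = 3 each; -0.31, adjusted p = 0.0508). Tyrobp, which encodes DAP12, stood at 11.42 ± 0.08 in AKR F1 and 11.20 ± 0.15 in DBA F1 (0.22, adjusted p = 0.175). Clec7a, the beta-glucan receptor dectin-1, had a difference of 0.64 ± 0.26 with overlapping arrays (adjusted p = 0.139).

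Fcgr2b was the only member gene with probe sets past the threshold, at 2 of its 5. Both are uncertain as measures of Fcgr2b alone, as given above. The genes whose 6 values, each centred on their own mean, lay closest to those of Fcgr2b 1435477_s_at were Fkbp9, Eef1akmt1 and Dock11. Their root mean square distances were 0.0253, 0.0284 and 0.0286 log2 units over the 6 arrays. Their differences between the crosses, 0.41, 0.43 and 0.42, are alike because the genes were picked for closeness of these same values. A shared regulation was not tested.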
